A study of Mus musculus with 12 samples.

Results

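The 10 integrin genes described here are Itga1, Itga2, Itga3, Itga5, Itga6, Itga9, Itgav, Itgb1, Itgb3 and Itgb5, matched by symbol among the 24421 genes listed; the choice of genes was made with earlier results of these data known. Each integrin on the cell surface is a pair of 1 alpha and 1 beta chain that holds the cell to its matrix and links that matrix to the actin skeleton. The alpha chain largely sets what is bound: collagens, laminins, or proteins such as fibronectin and vitronectin. In endothelium these receptors anchor vessels to the basement membrane and serve sprouting, and the matrix contacts they form are among the inputs known to act on YAP and TAZ.

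Lungs of C57BL/6J mice were taken at postnatal day 5, their endothelial cells were isolated by flow cytometry, and 3′ ends of transcripts were sequenced with the Lexogen QuantSeq kit. There were 3 groups of 4 libraries. L12YT-ECKO mice carried VE-cadherin-CreERT2, a Cre that needs tamoxifen and is driven by an endothelial promoter, with Lats1 f/f, Lats2 f/f, Yap f/f and TAZ f/f alleles. Lats1 and Lats2 encode kinases of the Hippo pathway that restrain the co-activators YAP and TAZ (genes Yap1 and Wwtr1). L12-ECKO mice carried the same driver with Lats1 f/f and Lats2 f/f alone. WT mice were labelled wild type. The labels do not say whether WT mice carried the driver, how and when Cre was induced, or whether each library is a different animal. P-values therefore measure the spread between these libraries, which may be technical.

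Values are the authors' log2 expression, on which a difference of 1 is a doubling. Every library had been given nearly the same distribution, and its depth is unknown. Between 9836 and 13060 genes lay above 0, fewest in L12-ECKO replicate 3. Its lowest value above 0 was 4.98, against 0.067 to 3.16 elsewhere, so low genes are poorly resolved there. In 5 libraries (L12YT-ECKO replicates 3 and 4 and L12-ECKO replicates 2, 3 and 4) a block of rows without integrin genes is shifted by 1 row. No WT library is among them. They are treated below as a batch, though no label names one. Whether they were prepared or processed apart from the others is not stated. The 10 endothelial markers, Pecam1 and Cdh5 among them, summed to 31516 to 34695 CPM (each library's values taken out of the log and scaled to the same total) in L12YT-ECKO, 30012 to 31345 in L12-ECKO and 31476 to 32568 in WT. Most of that is Egfl7, listed at 17.718 in every library. The other 9 summed to 9493 to 12678 CPM in L12YT-ECKO, 7993 to 9314 in L12-ECKO and 9438 to 10517 in WT, so that L12-ECKO lay wholly lower. In L12-ECKO versus WT 7 of these markers lay lower and 2 higher, with none called. Tek differed by -1.11 (SE 0.268, limma adjusted p = 0.0781) and Cldn5 by -0.67 (SE 0.208, limma adjusted p = 0.186). Only Tek lay entirely lower, where 3.34% of all tested genes did. Pecam1 differed by -0.14 and Cdh5 by -0.11, whereas Kdr (0.15) and Esam (0.21) were the 2 that lay higher. Cldn5, a tight junction gene, was called higher in L12YT-ECKO versus L12-ECKO, by 1.14 (SE 0.208, limma adjusted p = 0.039). Leukocyte markers summed to 8963 CPM in L12-ECKO replicate 1 and to 11.8 to 329 in the others. Most of the 8963 CPM came from S100a8 (15.20) and S100a9 (15.56). In that library Ptprc was listed at 10.16, Lyz2 at 7.30, and Cd3e and Cd79a at 0. All 7 tested hepatocyte markers lay higher in both knockout groups than in WT, with sums of 37.4 to 224 CPM in L12YT-ECKO, 56.4 to 433 in L12-ECKO and 27.2 to 95.4 in WT, and none was called. Red cell markers summed to 2317 to 9240 CPM in L12YT-ECKO, 1426 to 6154 in L12-ECKO and 2266 to 13693 in WT. Most of that is Hba-a1 and Hba-a2, listed at the same value as each other in every library, so 1 signal may enter these sums more than once. Epithelial markers reached at most 459, 463 and 519 CPM in L12YT-ECKO, L12-ECKO and WT.

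Wwtr1 stood at 8.16 to 9.37 in L12YT-ECKO, 10.11 to 11.57 in L12-ECKO and 11.56 to 12.01 in WT, and Yap1 at 6.69 to 8.20 in L12YT-ECKO, 9.35 to 10.45 in L12-ECKO and 9.46 to 10.02 in WT. In L12YT-ECKO versus WT Wwtr1 differed by -3.00 (SE 0.351, limma adjusted p = 0.000624) and was the only gene called. Yap1 differed by -2.08 there and was not called (limma adjusted p = 0.182). In L12YT-ECKO versus L12-ECKO both were called, Wwtr1 at -2.37 (limma adjusted p = 0.00504) and Yap1 at -2.25 (limma adjusted p = 0.0387). Lats2 stood at 8.63 to 9.57 in L12YT-ECKO, 9.71 to 10.33 in L12-ECKO and 8.42 to 9.34 in WT. L12-ECKO thus lay wholly above WT, by 0.999 on average (SE 0.364, limma adjusted p = 0.262). Lats1 scattered down to 0 in both knockout groups. A 3′ tag outside the deleted part does not check a deletion, so the Lats1 and Lats2 levels cannot decide whether these genes were deleted.

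All 10 subunits passed the filter on low values. Limma, fitted over 11779 genes and called at an adjusted p under 0.05, called none of them in any of the 3 comparisons. The share of all genes called was 0.475% for L12-ECKO versus WT, 0.00849% for L12YT-ECKO versus WT and 0.0679% for L12YT-ECKO versus L12-ECKO. What can be described is the level in each library and whether groups overlap. In L12-ECKO versus WT, Itga1, Itga2 and Itga6 lay below WT in every library, that is 3 of 10 subunits, where 3.34% of all tested genes lay entirely lower and 2.93% entirely higher. In L12YT-ECKO versus WT, 1 subunit lay entirely lower (Itga1; 2.16% of all genes) and 1 entirely higher (Itgb5; 2.53%). In L12YT-ECKO versus L12-ECKO, 1 lay entirely higher (Itga2; 2.74%) and 0 entirely lower (1.61%). The subunits at an unadjusted limma p under 0.05 were the same ones. They were 3 of 10, all lower, in L12-ECKO versus WT, where 12.1% of all genes passed (5.87% lower, 6.24% higher). They were 1 lower and 1 higher in L12YT-ECKO versus WT, where 6.21% passed (2.1% lower, 4.11% higher). In L12YT-ECKO versus L12-ECKO 1 was higher, where 6.09% passed (2.13% lower, 3.96% higher).

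**Figure D1:**
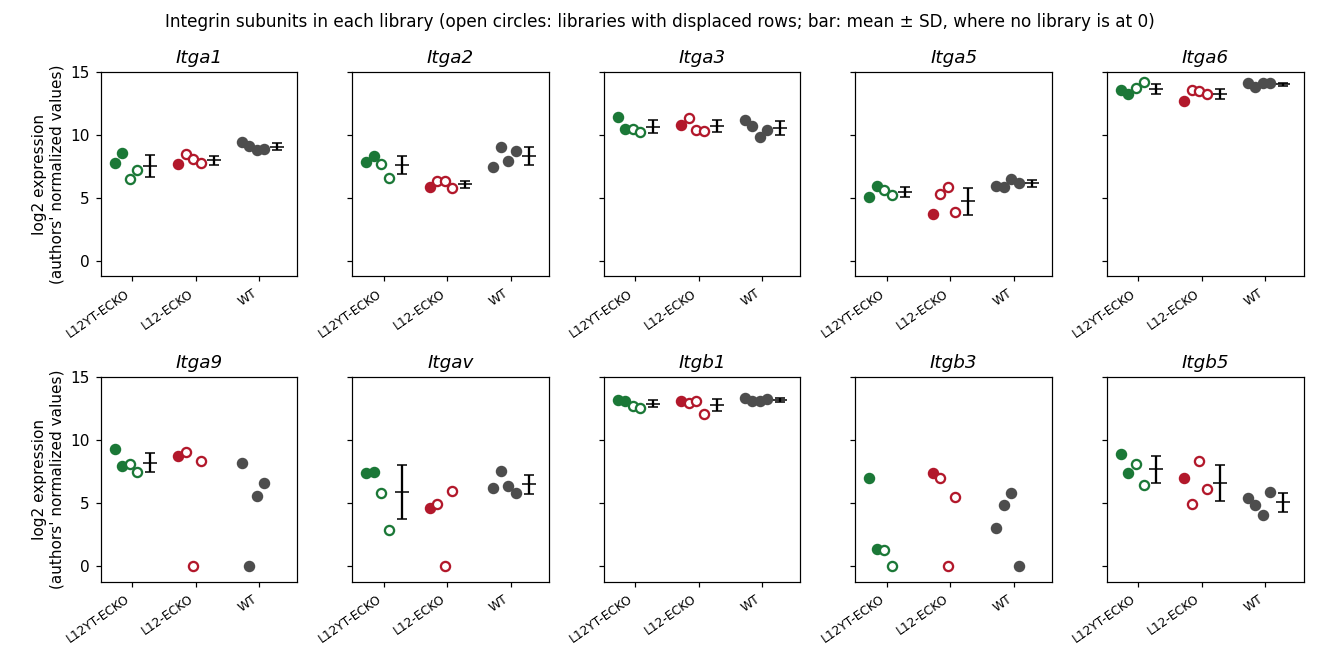
Log2 expression of the 10 integrin subunits in each of the 12 libraries, 1 panel per gene, with L12YT-ECKO, L12-ECKO and WT from left to right; bars give mean ± SD (n = 4) for groups with no library at 0, and open circles mark the libraries with displaced rows. Itga6 and Itgb1 stand high with little scatter (12.1 to 14.2), whereas Itga9, Itgav and Itgb3 fall to 0 in 1 or more libraries.

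The collagen receptors Itga2 and Itga1 are neighbouring genes, and both lay below WT in every L12-ECKO library. Itga2, which pairs with Itgb1 and is best known as a collagen receptor of platelets and epithelium, lies on chromosome 13 (114833081 to 114932100, minus strand, protein coding; mm10). It stood at 7.885, 8.31, 7.69 and 6.57 in L12YT-ECKO replicates 1 to 4, at 5.87, 6.31, 6.33 and 5.82 in L12-ECKO, and at 7.50, 9.055, 7.97 and 8.75 in WT. L12-ECKO was the low group: its highest library lay under the lowest of both other groups, which overlapped each other. Group levels were 7.61 ± 0.75 in L12YT-ECKO, 6.08 ± 0.28 in L12-ECKO and 8.32 ± 0.71 in WT (SD, n = 4 each). L12-ECKO minus WT was -2.23 (SE 0.624, 95% interval -3.54 to -0.93, limma adjusted p = 0.139), a level 4.70-fold lower. L12YT-ECKO minus L12-ECKO was 1.53 (SE 0.624, interval 0.22 to 2.83, limma adjusted p = 0.726). L12YT-ECKO minus WT was -0.70 (interval -2.01 to 0.60, limma adjusted p = 0.877), an interval that still holds a level lower by 2.01.

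Within the 7 libraries without displaced rows, which hold L12-ECKO replicate 1 as the only library of its group, Itga2 differed by -2.45 in L12-ECKO versus WT and by 2.23 in L12YT-ECKO versus L12-ECKO. Within the 5 displaced libraries Itga2 differed by 0.97 in L12YT-ECKO versus L12-ECKO. Leaving out any 1 library gave -2.51 to -1.99 for L12-ECKO versus WT and 1.30 to 1.88 for L12YT-ECKO versus L12-ECKO. Platelets carry Itga2 too: the 6 platelet markers, of which 3 were tested, summed to 17.4 to 57.0 CPM in L12YT-ECKO, 4.04 to 32.8 in L12-ECKO and 22.4 to 45.6 in WT. Their part in the Itga2 values was not tested. Gp9, which encodes a subunit of the platelet receptor for von Willebrand factor, was listed at 0 in all libraries but WT replicate 1. The endothelial markers other than Egfl7 also summed lower in L12-ECKO than in WT, with no overlap, though Kdr and Esam lay higher. The part of these markers' cells in the lower values of Itga2, Itga1 and Itga6 there was not tested. In bulk RNA, fewer cells of a type and less RNA per cell cannot be told apart.

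Itga1 encodes the other collagen-binding alpha chain of this set, which also pairs with Itgb1 and is abundant on capillary endothelium and on smooth muscle. It lies beside Itga2 on the same strand of chromosome 13 (114953096 to 115101964, protein coding), 20995 bases away. Its values were 7.81, 8.60, 6.53 and 7.195 in L12YT-ECKO, 7.72, 8.48, 8.06 and 7.75 in L12-ECKO, and 9.42, 9.135, 8.83 and 8.85 in WT. All 8 knockout libraries lay below all 4 WT libraries, and the knockout groups overlapped. The means were 7.53 ± 0.88 in L12YT-ECKO, 8.001 ± 0.35 in L12-ECKO and 9.06 ± 0.28 in WT (SD, n = 4 each). L12YT-ECKO differed from WT by -1.52 (SE 0.489, interval -2.55 to -0.50, limma adjusted p = 0.638) and L12-ECKO from WT by -1.06 (SE 0.489, interval -2.08 to -0.04, limma adjusted p = 0.398). L12YT-ECKO minus L12-ECKO was -0.47 (interval -1.49 to 0.56, limma adjusted p = 0.963). Both contrasts with WT share the WT libraries. In the 7 libraries without displaced rows they were -0.85 for L12YT-ECKO and -1.34 for L12-ECKO, and with the batch as a covariate -1.22 for L12YT-ECKO and -0.60 for L12-ECKO. The difference between the knockout groups turned to 0.49 in those 7 libraries.

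Markers of smooth muscle and pericytes also lay lower in the knockout groups. The 8 genes, 6 of them tested, summed to 43.3 to 115 CPM in L12YT-ECKO, 23.8 to 56.4 in L12-ECKO and 60.7 to 166 in WT, so that L12-ECKO did not overlap WT and L12YT-ECKO did. In L12-ECKO versus WT 5 of the 6 tested lay lower, with a median of -2.67 where the median of all genes was -0.02, and none was called. In L12YT-ECKO versus WT 5 of 6 lay lower, with a median of -0.86. No marker of this list was at 0 throughout a group. The 7 fibroblast markers summed to 35.7 to 135 CPM in L12YT-ECKO, 50.7 to 104 in L12-ECKO and 100.5 to 177 in WT. The part of these cells in the Itga1 values was not tested.

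The genes around the pair were set beside them because Itga1 and Itga2 are neighbours; they were chosen after the values were seen. Within 1000000 bases of the pair 5 other protein-coding genes were tested. Fst, which encodes the activin inhibitor follistatin, was listed at 5.61, 2.91, 1.63 and 1.16 in L12YT-ECKO, at 7.72, 5.38, 5.47 and 0 in L12-ECKO, and at 0 in every WT library, so no fold is given. All L12YT-ECKO libraries were thus listed above WT, as were 3 of 4 L12-ECKO libraries. The lowest value above 0 in any WT library was 3.009. The L12YT-ECKO values of 2.91, 1.63 and 1.16 lie under it, so they do not show higher expression than WT. The limma adjusted p was 0.8288 for L12YT-ECKO versus WT and 0.285 for L12-ECKO versus WT. In L12-ECKO versus WT, Mocs2, on the far side of Itga2, differed by 0.77 (SE 0.40, limma adjusted p = 0.446). Pelo, which lies inside Itga1 on the same strand, differed by 0.14 (SE 0.344, limma adjusted p = 0.899). Ndufs4 differed by -0.17 and Arl15 by -0.39. In L12YT-ECKO versus WT Mocs2, Pelo, Ndufs4 and Arl15 lay between -0.67 and 0.43. None of the 5 was called in any comparison. Gm49395, a predicted protein-coding gene overlapping Itga1, was not analysed here.

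**Figure D2:**
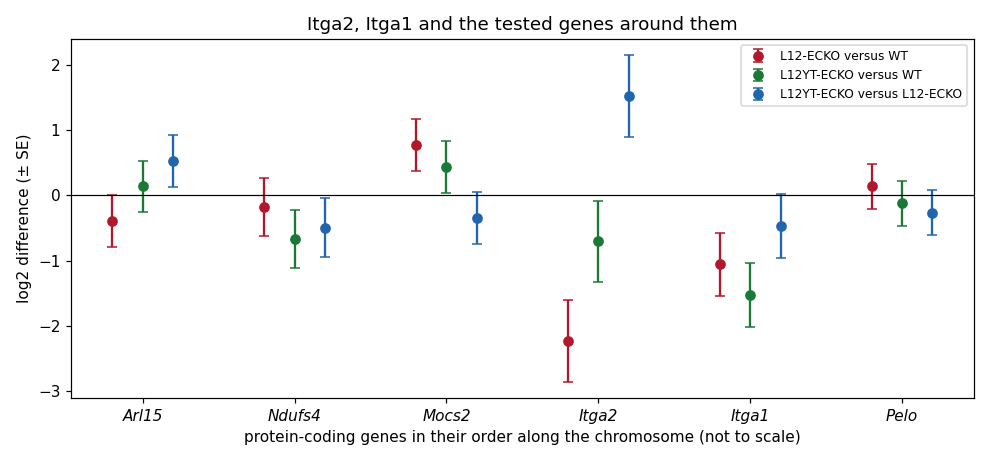
Log2 difference (± SE, limma) of Itga2, Itga1 and tested protein-coding genes near them, in chromosome order and not to scale, for the 3 comparisons; Fst is not drawn, since every WT library lists it at 0. Itga2 in L12-ECKO versus WT (-2.23) and Itga1 in L12YT-ECKO versus WT (-1.52) lie farthest below 0, while Pelo and Mocs2 lie between -0.34 and 0.77.

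RefSeq promoter sequences (GRCm38.p6, 250 bases before to 50 after a start) were found for 8 of the 10 subunits; Itga6 and Itgb3 were not among them. Those of the 2 neighbouring collagen receptors are shown because their levels lay lower together in L12-ECKO, and that of Itgb1, the beta chain of both, for comparison. They were searched on both strands for GGAATG, the core of the motif bound by TEAD factors, through which YAP and TAZ reach DNA, and for TGANTCA, the AP-1 motif. Capitals mark matches.
Itga1 (chr13:115101915-115102214, minus strand): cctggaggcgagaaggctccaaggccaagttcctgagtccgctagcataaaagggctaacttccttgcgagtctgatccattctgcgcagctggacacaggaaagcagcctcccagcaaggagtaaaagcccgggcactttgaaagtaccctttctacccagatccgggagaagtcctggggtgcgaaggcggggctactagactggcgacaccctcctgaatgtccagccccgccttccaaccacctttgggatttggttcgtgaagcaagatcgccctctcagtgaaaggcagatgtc
Itga2 (chr13:114932051-114932350, minus strand): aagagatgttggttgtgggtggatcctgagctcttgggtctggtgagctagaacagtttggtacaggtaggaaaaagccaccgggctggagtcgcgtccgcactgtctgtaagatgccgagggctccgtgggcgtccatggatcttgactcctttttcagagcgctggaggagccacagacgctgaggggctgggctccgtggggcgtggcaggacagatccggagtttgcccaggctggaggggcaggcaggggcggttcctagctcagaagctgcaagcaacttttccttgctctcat
Itgb1 (chr8:128685404-128685703, plus strand): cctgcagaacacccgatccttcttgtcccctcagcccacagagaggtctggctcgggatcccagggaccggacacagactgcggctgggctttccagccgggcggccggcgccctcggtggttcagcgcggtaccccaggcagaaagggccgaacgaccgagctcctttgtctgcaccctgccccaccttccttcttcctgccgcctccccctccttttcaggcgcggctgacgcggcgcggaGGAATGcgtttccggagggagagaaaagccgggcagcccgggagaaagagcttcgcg
GGAATG was found in the Itgb1 window, starting 7 bases before the start, and in none of the windows of the other 7 subunits. It occurs in 14.66% of all 32851 promoter windows of this length. TGANTCA was found in 1 window each of Itga3 (95069149 to 95069448) and Itga9 (118711442 to 118711741), and in 7.81% of all windows. Both windows lie inside the gene, away from its outer 5′ end. For Itga9 no other window was listed, so its outer 5′ end was searched for neither motif. The share of G and C was 56.7% for Itga1, 59.3% for Itga2 and 67.3% for Itgb1, with 12, 13 and 27 CpG sites, where the medians of all windows were 52.7% and 7 sites.

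The laminin receptors are Itga6 and Itga3. Itga6, which pairs with Itgb1 or Itgb4 and anchors cells to basement membrane laminin, lies on chromosome 2 (71745616 to 71858416, plus strand). It stood at 13.57, 13.22, 13.74 and 14.17 in L12YT-ECKO, 12.71, 13.56, 13.48 and 13.21 in L12-ECKO and 14.10, 13.84, 14.08 and 14.08 in WT. L12-ECKO lay wholly under WT, and L12YT-ECKO overlapped both. The means were 13.68 ± 0.39 in L12YT-ECKO, 13.24 ± 0.39 in L12-ECKO and 14.02 ± 0.12 in WT (SD, n = 4 each). L12-ECKO minus WT was -0.78 (SE 0.226, interval -1.26 to -0.31, limma adjusted p = 0.149), a level 1.72-fold lower. L12YT-ECKO minus WT was -0.35 (interval -0.82 to 0.12, limma adjusted p = 0.83) and L12YT-ECKO minus L12-ECKO 0.43 (interval -0.04 to 0.91, limma adjusted p = 0.83).

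Itga6 was the subunit whose call turned on how the batch was treated. With displaced rows as a covariate it fell by 1.25 in L12-ECKO versus WT (SE 0.23, limma adjusted p = 0.043), and within the 7 other libraries it differed by -1.31 (SE 0.255, limma adjusted p = 0.0438). Over all alternatives the limma adjusted p ran from 0.043 to 0.398. The 7 libraries hold L12-ECKO replicate 1 as the only one of its group, so that p takes the spread from L12YT-ECKO and WT and assumes that the lone library varies like them. Replicate 1 is the lowest Itga6 library and the one with leukocyte markers at 8963 CPM, mostly from S100a8 and S100a9. Without that library, and with the rest kept, the difference was -0.61 (limma adjusted p = 0.286). The part of leukocyte RNA in its low value was not tested.

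Itga3, the other laminin-binding alpha chain (chromosome 11, 95044474 to 95076801, minus strand), read 11.41, 10.47, 10.48 and 10.255 in L12YT-ECKO, 10.77, 11.37, 10.41 and 10.33 in L12-ECKO, and 11.22, 10.72, 9.84 and 10.375 in WT. The groups overlapped throughout. The 95% intervals were -0.62 to 0.85 for L12YT-ECKO minus WT, -0.55 to 0.92 for L12-ECKO minus WT and -0.80 to 0.67 for L12YT-ECKO minus L12-ECKO. Differences of more than 0.92 on the log2 scale, in either direction, thus lay outside all 3 intervals. The limma adjusted p was 0.969 for L12YT-ECKO versus WT, 0.87 for L12-ECKO versus WT and 0.991 for L12YT-ECKO versus L12-ECKO.

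Itgb1, the beta chain shared by all alpha chains of this set, lies on chromosome 8 (128685654 to 128733200, plus strand). It was abundant, with little scatter: 13.22, 13.08, 12.71 and 12.59 in L12YT-ECKO, 13.10, 12.92, 13.135 and 12.11 in L12-ECKO, and 13.37, 13.08, 13.09 and 13.23 in WT. L12-ECKO replicate 4 was the low library, and the groups overlapped. The difference was -0.38 for L12-ECKO minus WT (interval -0.88 to 0.13, limma adjusted p = 0.539), L12YT-ECKO minus WT -0.29 (interval -0.80 to 0.21, limma adjusted p = 0.874) and L12YT-ECKO minus L12-ECKO 0.08 (interval -0.42 to 0.58, limma adjusted p = 0.991). The L12-ECKO minus WT difference was -0.14 without L12-ECKO replicate 4 and -0.04 with the batch as a covariate. L12YT-ECKO minus WT ranged from -0.40 to -0.19 without 1 library at a time. Differences of more than 0.88 lay outside all 3 intervals.

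**Figure D3:**
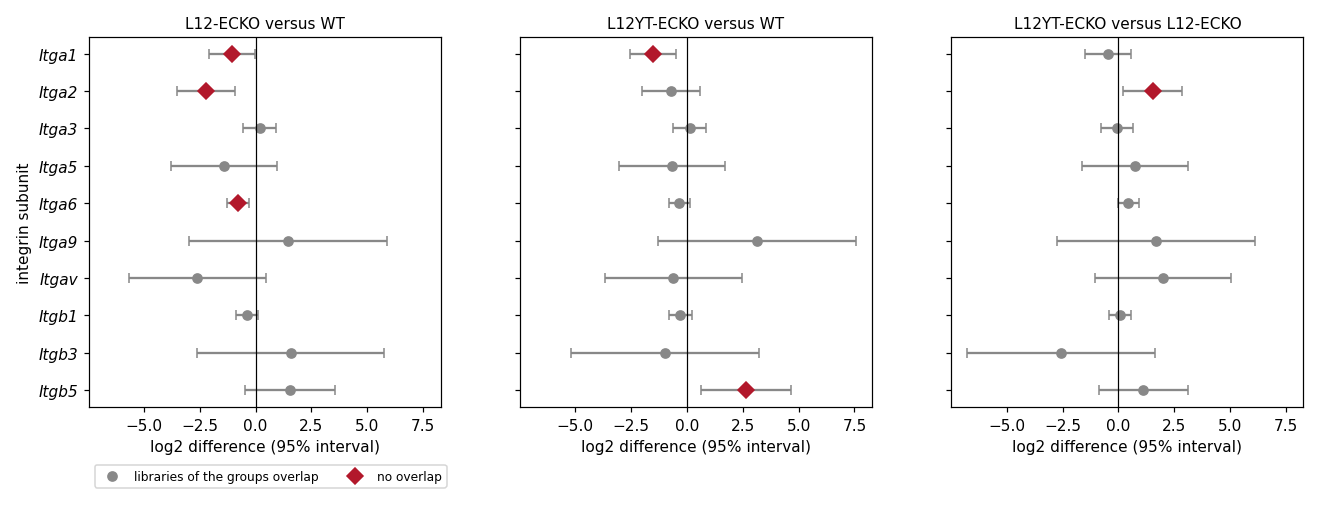
Log2 difference with its 95% interval (limma) for each subunit in the 3 comparisons; diamonds mark groups whose libraries do not overlap. The intervals of Itga6, Itgb1 and Itga3 are the narrowest, and those of Itga9 and Itgb3 the widest, reaching from -2.99 to 5.88 for Itga9 in L12-ECKO versus WT.

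Receptors for fibronectin, vitronectin and other matrix proteins form the third set. Itga5, the classical fibronectin receptor chain (chromosome 15, 103344286 to 103366763, minus strand), was low in this 3′ assay: 5.10, 5.98, 5.60 and 5.27 in L12YT-ECKO, 3.73, 5.35, 5.91 and 3.925 in L12-ECKO and 5.97, 5.91, 6.51 and 6.22 in WT. L12-ECKO replicates 1 and 4 were the lowest, and both knockout groups touched the WT range. It differed by -1.42 in L12-ECKO versus WT (SE 1.13, limma adjusted p = 0.629) and by -0.67 in L12YT-ECKO versus WT (SE 1.13, limma adjusted p = 0.94).

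Itgav, the alpha chain that pairs with Itgb1, Itgb3 and Itgb5 (chromosome 2, 83724397 to 83806916, plus strand), stood at 7.40, 7.45, 5.82 and 2.86 in L12YT-ECKO. It stood at 4.61, 4.97, 0 and 5.96 in L12-ECKO and at 6.25, 7.565, 6.37 and 5.79 in WT. The L12-ECKO values lay in the lower part of the range, and their highest overlapped WT. Itgav differed by -2.61 in L12-ECKO versus WT (SE 1.47, limma adjusted p = 0.482). With values of 0 taken as missing, or without L12-ECKO replicate 3, it was -1.31. L12YT-ECKO minus L12-ECKO was 1.99 (SE 1.47, limma adjusted p = 0.927), but 0.70 without L12-ECKO replicate 3 and 3.003 without L12YT-ECKO replicate 4. For L12YT-ECKO minus WT the difference was -0.61, which turned to 0.93 in the 7 libraries without displaced rows.

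Itgb5, a partner of Itgav in vitronectin binding (chromosome 16, 33829665 to 33949338, plus strand), lay higher in the knockout groups on average. Its values were 8.93, 7.38, 8.13 and 6.42 in L12YT-ECKO, 6.97, 4.97, 8.35 and 6.10 in L12-ECKO, and 5.44, 4.83, 4.10 and 5.89 in WT. Every L12YT-ECKO library lay above every WT library, and L12-ECKO spread across both ranges. Its means were 7.72 ± 1.07 in L12YT-ECKO, 6.60 ± 1.43 in L12-ECKO and 5.07 ± 0.78 in WT (SD, n = 4 each). L12YT-ECKO minus WT was 2.65 (SE 0.96, interval 0.64 to 4.66, limma adjusted p = 0.73), L12-ECKO minus WT 1.53 (SE 0.96, limma adjusted p = 0.53), and L12YT-ECKO minus L12-ECKO 1.12 (SE 0.96, limma adjusted p = 0.956). L12YT-ECKO minus WT was between 2.25 and 3.08 without any 1 library, and 3.09 in the 7 libraries without displaced rows. Leaving out L12-ECKO replicate 3 gave 0.95 for L12-ECKO minus WT and 1.70 for L12YT-ECKO minus L12-ECKO, which was 0.58 without L12-ECKO replicate 2 and 0.71 with L12YT-ECKO replicate 1 left out.

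Itgb3, the partner of Itgav that is induced on sprouting endothelium and, with Itga2b, forms the platelet fibrinogen receptor (chromosome 11, 104608000 to 104670476, plus strand), was scattered. It was listed at 7.01, 1.39, 1.31 and 0 in L12YT-ECKO, 7.43, 7.02, 0 and 5.535 in L12-ECKO and 3.01, 4.83, 5.805 and 0 in WT. A 0 occurred in each group. The intervals of its differences spanned -6.76 to 5.78, so even large differences could not be detected here (limma adjusted p = 0.955 for L12YT-ECKO versus WT, 0.782 for L12-ECKO versus WT and 0.948 for L12YT-ECKO versus L12-ECKO). Itga9, which binds tenascin-C and a spliced form of fibronectin and is needed for lymphatic valves in mice (chromosome 9, 118606690 to 118901003, plus strand), was listed at 9.305, 7.97, 8.13 and 7.52 in L12YT-ECKO. It was listed at 8.74, 9.08, 0 and 8.33 in L12-ECKO and at 8.17, 0, 5.57 and 6.63 in WT. Apart from the libraries at 0, WT replicates 3 and 4 were the lowest. L12YT-ECKO minus WT was 3.14 (SE 2.04, limma adjusted p = 0.834), and 1.44 without WT replicate 2. L12-ECKO minus WT was 1.45 (SE 2.04, limma adjusted p = 0.813), and turned to -0.25 without that WT library. L12YT-ECKO minus L12-ECKO was 1.69 (SE 2.04, limma adjusted p = 0.966), and turned to -0.49 without L12-ECKO replicate 3. Lymphatic markers, with Prox1, the defining factor, at 0 in all libraries, summed to 154 to 410 CPM in L12YT-ECKO, 422 to 672 in L12-ECKO and 313 to 465 in WT. Most of each sum was Lyve1, listed at 10.23 to 12.61, so these sums largely follow that gene. The part of lymphatic cells in the Itga9 values was not tested.

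Counted over the set, 7 of 10 subunits had a lower mean in L12YT-ECKO than in WT (45.7% of all genes), with a median difference of -0.48 where that of all tested genes was 0.08. In L12-ECKO versus WT 6 of 10 had a lower mean (50.9% of all genes), with a median of -0.58 against -0.02 over all genes. In L12YT-ECKO versus L12-ECKO 3 of 10 had a lower mean (45% of all genes), with a median of 0.60 against 0.09. The comparisons share libraries in pairs, so these counts are not independent of each other.

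**Figure D4:**
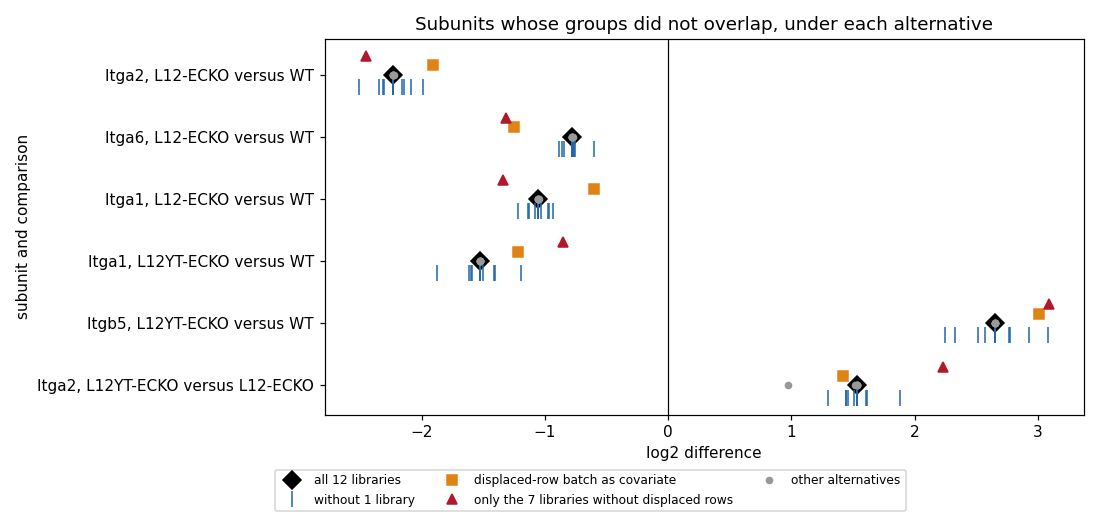
Log2 difference of the subunits whose groups did not overlap, in the fit to all 12 libraries (diamonds), without each library in turn (ticks), with the displaced-row batch as a covariate (squares), in the 7 libraries without displaced rows (triangles) and in the other alternatives on the same scale (dots). All stay on their side of 0, with Itga2 in L12-ECKO versus WT between -2.51 and -1.91. Ticks and triangles could not cross 0, since the groups do not overlap.

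Profiles across the 12 libraries were compared by Pearson's r as a measure of likeness, with no test. All libraries share depth and batch differences. The genes named are those with the highest r among the 11779 tested, over only 12 libraries, so a high r is in part a result of this choice. For Itgb1 the most alike genes were Dstn, which encodes the actin-severing protein destrin (r = 0.959, Spearman's rho = 0.813), Myl6, a myosin light chain gene (r = 0.944, rho = 0.841), and Gm22109 (r = 0.938, rho = 0.82). Without the pair of libraries farthest from its median these were 0.896, 0.833 and 0.779. For Itgav it was Alms1 (r = 0.976, rho = 0.944), Slc7a7 and Nudt13, at 0.858, 0.848 and 0.726 without its farthest pair. Itgb3 was most like Chrm2 (r = 0.906, rho = 0.898), Lig3 and Bcl6. For Itga9 the nearest, Tnfsfm13 (r = 0.929, rho = 0.767), dropped to 0.619 without the libraries at 0, Ppp1r12c to 0.515 and Leng8 to -0.0279, so these likenesses rest largely on those libraries.

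Of the 17 other integrin subunits 3 passed the filter, and none was called in any comparison. Itgb4, the partner of Itga6 in hemidesmosomes, stood at 7.13 to 7.90 in L12YT-ECKO, 6.38 to 8.46 in L12-ECKO and 0 to 8.46 in WT, where replicate 4 was at 0. Itga4, which binds VCAM1 and fibronectin, stood at 6.88, 7.70, 6.82 and 7.215 in L12YT-ECKO, at 2.57, 6.98, 0 and 6.31 in L12-ECKO, and at 5.74, 8.05, 4.10 and 4.46 in WT. It differed by 3.19 in L12YT-ECKO versus L12-ECKO (SE 1.49, limma adjusted p = 0.814). The platelet chain Itga2b differed by 0.58 in L12YT-ECKO versus WT, -0.59 in L12-ECKO versus WT and 1.17 in L12YT-ECKO versus L12-ECKO. Among the 14 that failed the filter were the leukocyte chains Itgal, Itgam and Itgb2. They stood at 10.285, 10.26 and 7.51 in L12-ECKO replicate 1, whereas Itgam reached at most 3.48 and Itgb2 1.63 in the other libraries. Itgal was listed at 7.355 in L12-ECKO replicate 2 and at most at 4.204 in the rest.

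The proteins that activate integrins or join them to actin were called in no comparison, with 29 of 31 tested. Of the tested genes 18 lay higher and 11 lower in L12-ECKO versus WT, with a median of 0.38 where that of all tested genes was -0.02. At an unadjusted limma p under 0.05 there were 5 of 29 higher and 4 lower, where 6.24% of all genes were higher and 5.87% lower. Vasp, an actin-elongating protein of focal adhesions, had the highest mean of the list, at 13.04 ± 0.25 in L12YT-ECKO, 13.22 ± 0.34 in L12-ECKO and 12.69 ± 0.39 in WT, and Flna, which encodes an actin crosslinker, at 12.71 ± 0.17 in L12YT-ECKO, 12.65 ± 0.36 in L12-ECKO and 13.07 ± 0.25 in WT (SD, n = 4 each). The L12-ECKO minus WT differences were 0.53 for Vasp (limma adjusted p = 0.389) and -0.42 for Flna (limma adjusted p = 0.456). The widest differences were those of Kank1, listed at 0 in 3 WT libraries and in L12-ECKO replicate 3, and of Tln2, listed at 0 in 2 WT libraries. Kank1 differed by 3.86 in L12YT-ECKO versus WT (SE 1.89, limma adjusted p = 0.798) and Tln2, which encodes a talin, by 3.69 (SE 1.598, limma adjusted p = 0.755).

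Among 25 tested genes of 33 for matrix ligands of these receptors, Ctgf and Cyr61 rose in L12-ECKO versus WT, where 0.289% of all genes were called higher and 0.187% lower. Both fell in L12YT-ECKO versus L12-ECKO, where 0.0594% of all genes were called lower; the comparisons share the L12-ECKO libraries. They encode matricellular proteins that bind integrins containing Itgav or Itga6. Ctgf averaged 9.57 ± 0.65 in L12YT-ECKO, 13.80 ± 0.95 in L12-ECKO and 7.62 ± 1.34 in WT (SD, n = 4 each), and Cyr61 8.57 ± 0.82 in L12YT-ECKO, 12.05 ± 1.02 in L12-ECKO and 7.83 ± 0.65 in WT. L12-ECKO minus WT was 6.18 for Ctgf (SE 0.617) and 4.22 for Cyr61 (SE 0.506), both at a limma adjusted p of 0.000381. L12YT-ECKO minus L12-ECKO was -4.23 for Ctgf (limma adjusted p = 0.0192) and -3.47 for Cyr61 (limma adjusted p = 0.00504). With the batch as a covariate, over all 12 libraries, Ctgf differed by -4.18 in L12YT-ECKO versus L12-ECKO and was not called (limma adjusted p = 0.055), and Cyr61 by -3.45 (limma adjusted p = 0.0196). Within the 7 libraries without displaced rows, where L12-ECKO is 1 library assumed to vary like the other groups, Ctgf differed by -5.35 in L12YT-ECKO versus L12-ECKO, where its limma adjusted p was 0.0802, and Cyr61 by -5.18 (limma adjusted p = 0.0298); within the 5 displaced libraries Ctgf differed by -3.53 and Cyr61 by -2.49 (limma adjusted p = 0.458 for both). Leaving out 1 library at a time kept the call of Ctgf in this comparison in 8 of 12 cases, with a limma adjusted p of up to 0.0924 (without L12YT-ECKO replicate 2), and that of Cyr61 in 12 of 12. L12YT-ECKO minus WT was 1.95 for Ctgf (limma adjusted p = 0.684) and 0.75 for Cyr61 (limma adjusted p = 0.836), and neither was called. The abundant ligands Col4a1, a basement membrane collagen, and Fn1, fibronectin, were not called. L12-ECKO minus WT was -0.02 for Col4a1 (SE 0.219) and 0.37 for Fn1 (SE 0.27). Fn1 differed by -0.73 in L12YT-ECKO versus L12-ECKO (SE 0.27, limma adjusted p = 0.668).

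All 17 membrane proteins listed as partners of integrins were tested, and none was called. Of these, 10 lay higher and 7 lower in L12-ECKO versus WT, with a median of 0.20 where that of all genes was -0.02. Groups did not overlap for 3 of 17 lower and 1 higher, where 3.34% of all tested genes lay entirely lower and 2.93% entirely higher. Cd9, a tetraspanin that binds several of these receptors, averaged 9.62 ± 0.58 in L12YT-ECKO, 10.71 ± 0.77 in L12-ECKO and 8.85 ± 1.19 in WT (SD, n = 4 each). It differed by 1.86 in L12-ECKO versus WT (SE 0.522, limma adjusted p = 0.149) with no overlap, and by 0.77 in L12YT-ECKO versus WT. Cav1, the caveolin that links integrins to signalling, differed by -0.68 in L12-ECKO versus WT (SE 0.247, limma adjusted p = 0.262), also with no overlap. Plaur, the urokinase receptor, differed by 1.31 (SE 0.572, limma adjusted p = 0.364) and Kdr, the VEGF receptor, by 0.15 (SE 0.222, limma adjusted p = 0.82) in that comparison.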

How the data were processed

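Endothelial RNA of 3 genotypes, 4 libraries each, was measured by 3′ sequencing. The authors deposited 1 table of log2 values per library. The submitters' processing notes name Bowtie2, edgeR and mm10, without roles or versions. The log2 scale and quantile normalization were read from the values: every library reaches 20.66, so differences in total RNA are removed. Groups and replicate numbers come from the titles. Of 24421 genes, the 24394 that all 12 tables hold were kept, less 35 rows that are displaced or exchanged in 5 libraries; 27 genes carry names turned into dates in some tables.

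Limma 3.58.1 in R 4.3.3 (statmod 1.5.0) fitted 1 mean per group over all 12 libraries on the deposited values, with a trended, robust variance prior and 9 residual degrees of freedom, and was checked on simulated data. A gene was tested if it reached a CPM of 1 in 4 or more libraries, CPM being taken from the unlogged values. P-values were adjusted by Benjamini-Hochberg over 11779 genes. The 10 members and 14 gene lists with 174 entries were chosen with earlier results of these data known. Of each list of integrin partners the text names called genes, the 2 with the highest mean and the 2 with the widest difference. Coordinates are those of GENCODE M21 (GRCm38) and promoters those of RefSeq. Alternatives were a replicate block, the batch as covariate, the 7 libraries alone, another logarithm, other filters, equal medians, zeros as missing, a plain prior and leaving out each library; the 5 displaced libraries alone were added after the data were seen.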

Additional observations from a re-analysis of the deposited data

Results flagged for a closer look

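Within the 30 sets of 4 libraries (10 subunits in 3 groups), 2 held a library far from the other 3, by the gap to its nearest neighbour as a share of the whole range; chance gives this in a share of about 0.05 of such sets. Itga6 in WT replicate 2 was 13.84, where the other WT libraries lay between 14.08 and 14.10. Itga9 in L12-ECKO replicate 3 was listed at 0, where the other libraries of that group lay between 8.33 and 9.08; that library also held the fewest genes above 0, and listed Itgav and Itgb3 at 0 too.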

How the results depend on the processing

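No integrin was called in 19 of 21 alternatives for L12-ECKO versus WT, in 21 of 21 for L12YT-ECKO versus WT and in 22 of 22 for L12YT-ECKO versus L12-ECKO. In L12-ECKO versus WT, 1 was called with the displaced-row batch as a covariate and 1 in the 7 libraries without displaced rows, both times Itga6; in the 7 libraries L12-ECKO is a single library. In the covariate fit, 1 L12-ECKO library alone shares the undisplaced rows of WT. The differences of the 6 cases without overlap kept their direction in every alternative run. Alternatives that leave out libraries could not have turned them, since their groups do not overlap. The batch as a covariate could have. Among the other differences some turned round. In the 7 libraries, L12YT-ECKO versus WT was 0.93 for Itgav and 0.79 for Itgb3, and L12YT-ECKO versus L12-ECKO was 0.49 for Itga1, 0.17 for Itga3 and -0.10 for Itga9. With the batch as covariate, L12YT-ECKO versus WT was 0.48 for Itgav and 0.72 for Itgb3, and L12YT-ECKO versus L12-ECKO was -0.030 for Itgb1; in the 5 displaced libraries the last was -0.073. With zeros as missing, Itga9 was -0.49 in L12YT-ECKO versus L12-ECKO. Without 1 library at a time, L12-ECKO versus WT ranged from -0.052 to 0.41 for Itga3 and from -0.25 to 3.62 for Itga9; L12YT-ECKO versus WT from -0.14 to 0.34 for Itga3 and from -1.13 to 0.40 for Itgav; and L12YT-ECKO versus L12-ECKO from -0.32 to 0.15 for Itga3, -0.49 to 2.54 for Itga9 and -0.15 to 0.19 for Itgb1. The cause was not tested. The count of all genes called ran from 7 (plain variance prior) to 80 (without WT replicate 3) around 56 in L12-ECKO versus WT, from 1 to 3 (without WT replicate 1) around 1 in L12YT-ECKO versus WT, and from 0 (5 displaced libraries) to 14 (7 libraries) around 8 in L12YT-ECKO versus L12-ECKO. Deviations of same-numbered libraries correlated at -0.0443 to 0.0565, those of others at -0.106 to 0.152, so no pairing by number was visible. Whether same-numbered libraries share a litter or day is not stated, and such correlations cannot decide it. With the replicate block 0 integrins were called, and 44 genes in L12-ECKO versus WT, 1 in L12YT-ECKO versus WT and 6 in L12YT-ECKO versus L12-ECKO. Depth is unknown, and the subunits with zeros have intervals too wide to show moderate differences.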
